A study of Mus musculus with 8 samples.

Results

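The genes of the collagen chains were followed in mouse skin by postnatal day and by genotype. Members were all genes whose symbol is Col, a number, the letter a and a number, which gave 44 of the 55418 genes in each library, every one of them protein-coding. They were sorted by the structure their protein takes part in: 11 fibrillar, 6 type IV basement membrane, 3 type VIII and X network, 9 fibril-associated, 6 type VI, 1 anchoring fibril, 4 transmembrane and 2 multiplexin genes, with 2 others. Skin RNA came from wildtype mice and from mice of the genotype called hairloss, which arose by spontaneous mutation. Both genotypes were sampled at postnatal days 0, 16, 19 and 28, with 1 library for each genotype and day and 8 libraries in all. The sources used here do not give the mutated gene, the strain, the sex or the number of animals in a library. Because no group has a second library, the difference between genotypes at a single day has no replicate error.

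Collagens are extracellular proteins of 3 chains wound into a triple helix, which cells fold and hydroxylate before secretion and which are then trimmed, assembled and cross-linked outside the cell. In skin, fibroblasts of the dermis make most of the fibrillar chains that give the tissue its tensile strength. Type IV chains form the sheet of the basement membrane under the epidermis and around hair follicles, and types VII and XVII fasten the epidermis to it. Loss of either of these types causes skin blistering.

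Values are in FPKM, fragments per kilobase of transcript scaled to the number of mapped fragments, which is a scale per length and allows levels of different genes to be compared. Estimated depth was 30900000 to 44700000 fragments a library, and 3 fragments on a transcript of 1 kb corresponded to 0.0672 to 0.0971 FPKM. The exact zeros of Col1a1 in wildtype at days 19 and 28, and of Col3a1 in hairloss at days 0 and 28 and wildtype at day 19, stand beside values of at least 486 FPKM for these genes elsewhere and were left out as failed estimates. Sex differed between libraries: Ddx3y, a Y-linked gene, was at 0 in hairloss at days 0 and 28 and at 15.8 to 20.4 FPKM in the other 6 libraries, while Xist, made from the inactive X, reached 12.4 FPKM or more in both day 0 libraries, wildtype at day 19 and hairloss at day 28. At day 28 wildtype held 16.5 FPKM of Ddx3y and 0.166 FPKM of Xist, and hairloss 0 and 50.2 FPKM. Sex and genotype therefore cannot be told apart at that day. The part of sex in the collagen differences was not tested. Summed markers of skeletal muscle ranged from 723 FPKM in hairloss at day 16 to 7001 FPKM in hairloss at day 0. The 6 hair shaft keratins summed to 3587, 14.8 and 3155 FPKM in wildtype at days 16, 19 and 28 and to 747, 278 and 0.588 FPKM in hairloss, and their part in the collagen differences was not tested. Cartilage markers summed to at most 6.87 FPKM and bone markers to at most 1.9 FPKM. In bulk skin, fewer cells of a type and less RNA per cell cannot be told apart.

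**Figure D1:**
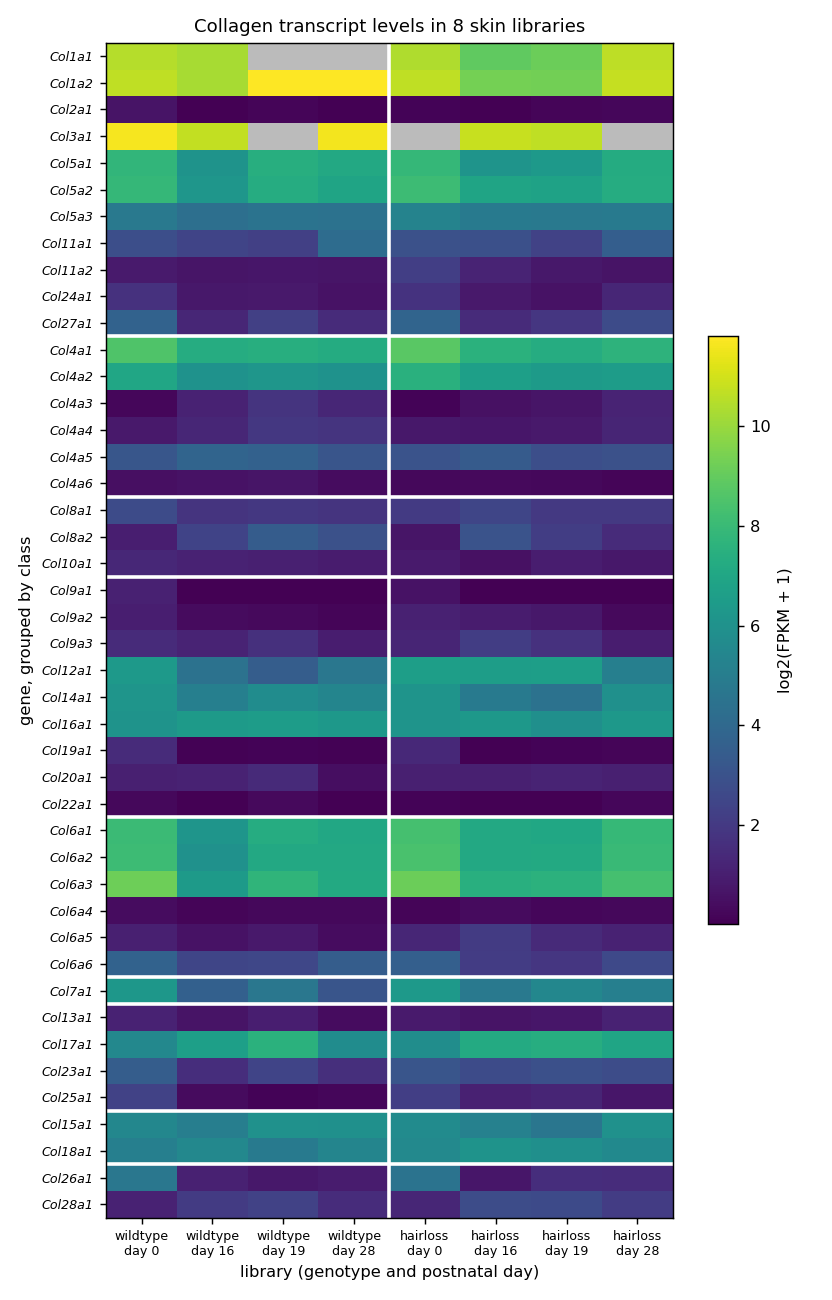
Level of each of the 44 collagen genes as log2(FPKM + 1) (colour) in the 4 wildtype and 4 hairloss libraries, with genes grouped by class between white lines and values left out in grey. Col1a1, Col1a2 and Col3a1 hold the highest levels, and types V, VI and IV come next.

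From day 0 to day 16, 11 collagen genes fell, among them Col6a2 and Col6a3 of type VI, Col4a1 and Col4a2 of type IV, Col5a1 of type V and Col7a1 of the anchoring fibril. At days 16 and 19 hairloss skin held 95.3 and 97.6 FPKM of Col12a1, a fibril-associated collagen, against 20.8 and 10.1 FPKM in wildtype. At days 19 and 28 hairloss skin held 627 and 1731 FPKM of Col1a2, a chain of the main fibre collagen, against 3535 and 3575 FPKM in wildtype. The fall from day 0 to day 16 passed a test over both genotypes, but leaving out any 1 library of those days, or the filter on low values, ended every collagen call. The values of Col12a1 and Col1a2 at single days rest on 1 library each.

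A size rule was used at each day: a difference of at least 2-fold on log2(FPKM + 1) between libraries, with at least 1 FPKM in either. Folds printed beside levels are plain ratios of FPKM. At day 0, 37 collagens could be compared, and Col11a2 alone was higher in hairloss, while none was lower. The same rule was passed by 1.31% of all genes compared in the higher and 1.4% in the lower direction (0.499% and 0.484% of protein-coding genes). At day 16 the rule found 6 of 35 higher (5.12% of all genes, 5.24% of protein-coding genes) and 1 lower (7.29% and 4.96%). At day 19 it found 3 of 33 higher (6.25% and 5.81%) and 7 lower (5.62% and 5.25%). At day 28 it found 5 of 31 higher (5.28% and 5.16%) and 2 lower (6.3% and 5.67%). More collagens were thus higher than lower in hairloss at days 16 and 28, and more were lower at day 19. At days 16, 19 and 28, summed markers in hairloss stood at 1.02, 0.487 and 1.77 times wildtype for adipocytes and 1.11, 0.609 and 1.79 for endothelium. These marker ratios were 0.893, 0.599 and 2.01 for Schwann cells and nerve, and 0.467, 0.482 and 2.22 for muscle. Their part in the collagen differences was not tested. The median difference of the collagens, hairloss minus wildtype on log2(FPKM + 1), was -0.03, 0.19, -0.09 and 0.21 at days 0, 16, 19 and 28. Over all genes compared, the medians lay between -0.08 and 0, whereas the collagen medians also include genes under 1 FPKM.

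**Figure D2:**
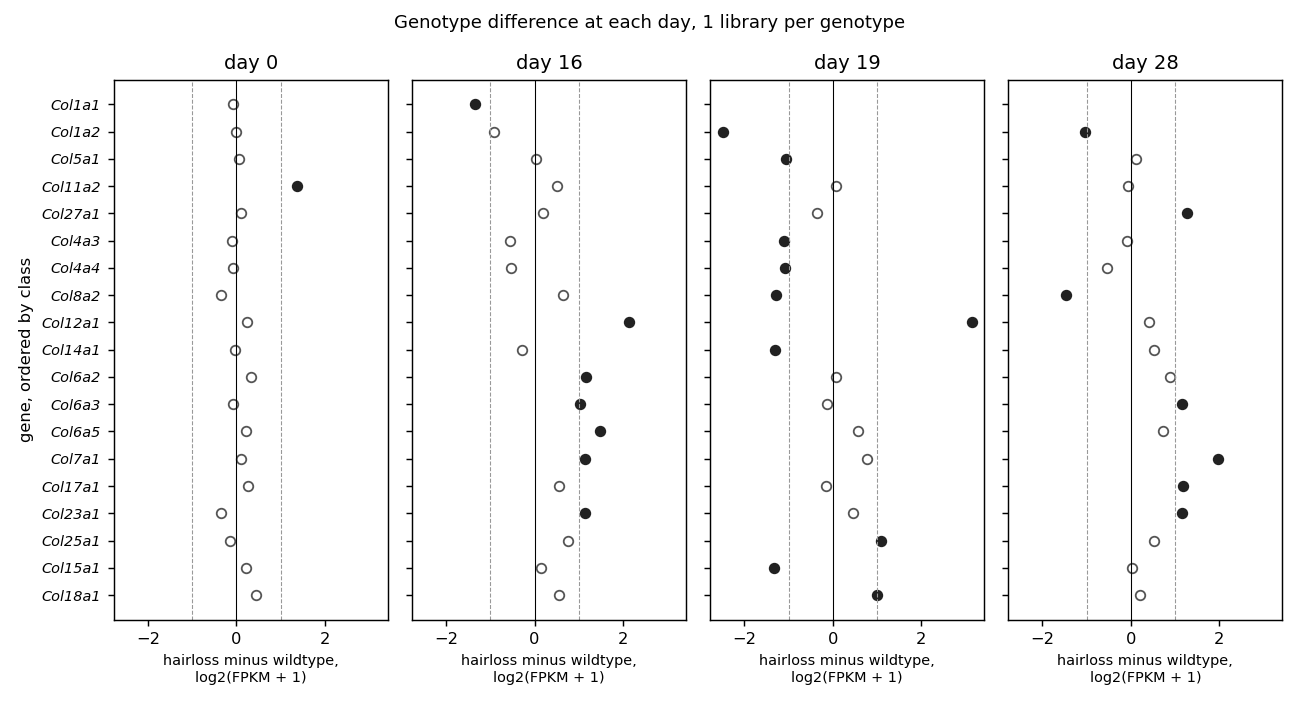
Difference of hairloss minus wildtype on log2(FPKM + 1) (horizontal axis) at each of the 4 days for the 19 collagens that passed the 2-fold rule at any day; filled points passed it at that day and dashed lines mark 2-fold. Col12a1 lies farthest to the right at days 16 and 19, and Col1a2 farthest to the left at day 19.

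The pair of chains that make type I collagen, the chief fibre of dermis and bone, gave the largest values beside Col3a1. Col1a2 (chr6:4504814-4541544 in mm10) stood at 1621, 1215, 3535 and 3575 FPKM in wildtype at days 0, 16, 19 and 28, and at 1611, 646, 627 and 1731 FPKM in hairloss. It was lower in hairloss at all 4 days, by 5.64-fold at day 19 and 2.07-fold at day 28, although the ranges of the genotypes over days overlap. Col1a1 (chr11:94936224-94953042) was at 1424 and 1236 FPKM in wildtype at days 0 and 16, and at 1350, 486, 576 and 1583 FPKM in hairloss at days 0, 16, 19 and 28. At day 16 hairloss was 2.54-fold lower. The highest Col1a2 values came from the same libraries whose Col1a1 value was a failed estimate, and the part of that failure in the Col1a2 values was not tested. In the other 6 libraries the ratio of Col1a1 to Col1a2 stayed between 0.752 and 1.02.

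Col3a1 (chr1:45311538-45349706), the chain of the thinner type III fibres of young skin, had values of 3238, 1706 and 3140 FPKM in wildtype at days 0, 16 and 28 and of 1801 and 1659 FPKM in hairloss at days 16 and 19. Both genotypes therefore have a value at day 16 alone, where they differed by less than 2-fold. Col5a2 lies next to Col3a1 on the same chromosome (chr1:45374321-45503282), and the ratio of Col3a1 to Col5a2 was 14.1 to 26.6 over 5 libraries.

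Type V chains are built into type I fibres and limit their width. Col5a1 (chr2:27886425-28039514) was at 221, 66.4, 167 and 141 FPKM in wildtype skin and at 231, 67.7, 80.2 and 154 FPKM in hairloss at days 0, 16, 19 and 28. Genotypes were close at days 0, 16 and 28, and hairloss was 2.08-fold lower at day 19. Col5a2 showed 229, 73.3, 157 and 118 FPKM in wildtype against 269, 117, 112 and 160 FPKM in hairloss, with no day past 2-fold. Col5a3 was lower in level, at 19 to 26.9 FPKM in wildtype skin and 26.6 to 38.3 FPKM in hairloss, and was higher in hairloss at all 4 days. The ratio of Col5a1 to Col5a2 was 0.967, 0.905, 1.06 and 1.2 in wildtype and 0.859, 0.577, 0.715 and 0.961 in hairloss, lower in hairloss at each day.

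The remaining fibrillar genes were low. Col11a1, whose protein nucleates fibres in cartilage, was at 3.82 to 6.6 FPKM until day 19 and at 17.1 FPKM in wildtype skin and 10.5 FPKM in hairloss at day 28. Col11a2 was at 0.535 to 1.29 FPKM except in hairloss at day 0, where it reached 3.62 FPKM against 0.795 FPKM in wildtype. Col27a1, a fibrillar collagen of developing cartilage and skin, was at 12.3, 1.4, 3.68 and 1.74 FPKM in wildtype skin and at 13.2, 1.75, 2.66 and 5.63 FPKM in hairloss, so that hairloss was 3.23-fold higher at day 28. Col24a1 lay between 0.508 and 2.31 FPKM, and Col2a1, the main chain of cartilage, did not exceed 0.541 FPKM.

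Type IV genes sit in 3 head-to-head pairs. Col4a1 and Col4a2 (chr8:11198423-11312826 and chr8:11312805-11449287), which encode the chains found in nearly every basement membrane, overlap at their starts, and the sources used here do not say whether counting used strand. Col4a1 was at 373, 156, 169 and 154 FPKM in wildtype skin and 435, 188, 157 and 201 FPKM in hairloss. Col4a2 was at 127, 64.8, 72.1 and 65 FPKM in wildtype skin and at 178, 101, 85.5 and 90.4 FPKM in hairloss, higher in hairloss at all 4 days. The ratio of Col4a1 to Col4a2 was 2.34 to 2.94 in wildtype and 1.84 to 2.45 in hairloss, and lower in hairloss at each day.

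The other type IV genes encode the restricted chains, of which those of Col4a5 and Col4a6 occur in epidermal basement membrane. Col4a5 (chrX:141475385-141689234) was at 8.07, 13.1, 11.7 and 7.67 FPKM in wildtype skin and at 7.17, 9.59, 6.24 and 6.72 FPKM in hairloss. Col4a4 (chr1:82448423-82586849) was at 0.776, 1.42, 2.77 and 2.42 FPKM in wildtype skin and at 0.684, 0.666, 0.777 and 1.33 FPKM in hairloss. Both were lower in hairloss at all 4 days, with ranges that overlap. Col4a3 was at 0.168, 1.18, 2.44 and 1.39 FPKM in wildtype skin and 0.098, 0.474, 0.609 and 1.27 FPKM in hairloss. At day 19 Col4a3 was 4-fold and Col4a4 3.57-fold lower in hairloss. Col4a6 stayed under 1 FPKM, at 0.338 to 0.59 FPKM in wildtype skin and 0.124 to 0.227 FPKM in hairloss, with no overlap. Among all genes that reached 1 FPKM in some library, 2.51% lay lower in hairloss without overlap. The ratio of Col4a5 to Col4a6 was thus 19.9 to 26.7 in wildtype and 30.2 to 54 in hairloss, and it rests on these low Col4a6 values.

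Type VI collagen forms beaded filaments around cells and near basement membranes, from chains of Col6a1, Col6a2 and a longer chain. Col6a3 (chr1:90765923-90843971), the usual long chain, was at 595, 85.1, 210 and 142 FPKM in wildtype skin and at 563, 175, 190 and 319 FPKM in hairloss. The genotypes were close at days 0 and 19, and hairloss was 2.06-fold higher at day 16 and 2.24-fold higher at day 28. Col6a2 (chr10:76595762-76623630) was at 275, 61.6, 137 and 138 FPKM in wildtype skin and at 343, 139, 145 and 254 FPKM in hairloss. Col6a1 followed with 264, 69.6, 157 and 134 FPKM against 316, 140, 132 and 239 FPKM. The ratio of Col6a1 to Col6a2 was 0.909 to 1.14 over the 8 libraries, a 1.26-fold range.

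Summed over its 6 genes, type VI stood in hairloss at 1.08, 2.08, 0.928 and 1.93 times the wildtype sum at days 0, 16, 19 and 28. The 8 fibroblast markers summed to 1155, 436, 856 and 445 FPKM in wildtype skin and to 1388, 682, 633 and 901 FPKM in hairloss, which is 1.2, 1.56, 0.74 and 2.02 times wildtype. Both sums were above wildtype at days 0, 16 and 28 and below it at day 19. Vim carried most of the fibroblast sum at day 0 (700 FPKM in wildtype, 918 FPKM in hairloss), where Dpt, Fbln1 and Twist2 were lower in hairloss. Mfap5 was lower in hairloss at days 16 and 28, and Pdgfra was higher at day 19 (33.2 against 44.1 FPKM). The list's median difference was 0.10, 0.52, -0.55 and 0.99 on log2(FPKM + 1) at days 0, 16, 19 and 28. The part of fibroblast content in the type VI values was not tested. A cluster of 3 genes on chromosome 9 encodes alternatives to that long chain. Col6a5 was at 0.323 to 1.09 FPKM in wildtype skin and 1.2 to 3.15 FPKM in hairloss, with the widest gap at day 16 (0.486 against 3.15 FPKM). Its genotypes did not overlap, which held in this direction for 2.33% of all genes. Col6a6 went the other way, at 12, 4.51, 4.79 and 10.1 FPKM in wildtype skin and 11.1, 3.38, 2.72 and 5.11 FPKM in hairloss. Col6a4 did not exceed 0.33 FPKM.

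Col7a1 (chr9:108953586-108984875) encodes the anchoring fibrils that tie the epidermal basement membrane to the dermis. It was at 75.3, 11.3, 24.7 and 7.62 FPKM in wildtype skin and at 80.4, 26.2, 43.2 and 32.9 FPKM in hairloss. Hairloss was higher at all 4 days, by 2.31-fold at day 16 and 4.32-fold at day 28. Col17a1 (chr19:47646344-47692094), the transmembrane collagen of the hemidesmosome of basal keratinocytes, was at 45.4, 99.3, 183 and 52.8 FPKM in wildtype skin and at 54.4, 147, 164 and 122 FPKM in hairloss. Its genotypes differed past 2-fold at day 28 alone, where hairloss was 2.31-fold higher. Basal keratinocyte markers, 6 genes, summed in hairloss to 1.27, 2.71, 4.05 and 2.19 times wildtype at days 0, 16, 19 and 28. At day 19 Krt14 (618 against 4829 FPKM) carried most of that sum, the list's median difference was 0.54 on log2(FPKM + 1), and Dst was lower in hairloss (134 against 82.9 FPKM). The part of these cells in the Col7a1 and Col17a1 values was not tested.

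Among the other transmembrane collagens, Col23a1 was at 10.3, 1.9, 4.41 and 2.03 FPKM in wildtype skin and at 7.79, 5.43, 6.47 and 5.78 FPKM in hairloss. Hairloss was lower at day 0 and higher at the 3 later days, by 2.85-fold at day 16 and 2.84-fold at day 28. Col25a1, best known from neurons and muscle innervation, was at 4.06, 0.285, 0.0914 and 0.155 FPKM in wildtype skin and at 3.57, 1.17, 1.33 and 0.66 FPKM in hairloss. Col13a1 stayed between 0.343 and 1.24 FPKM.

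**Figure D3:**
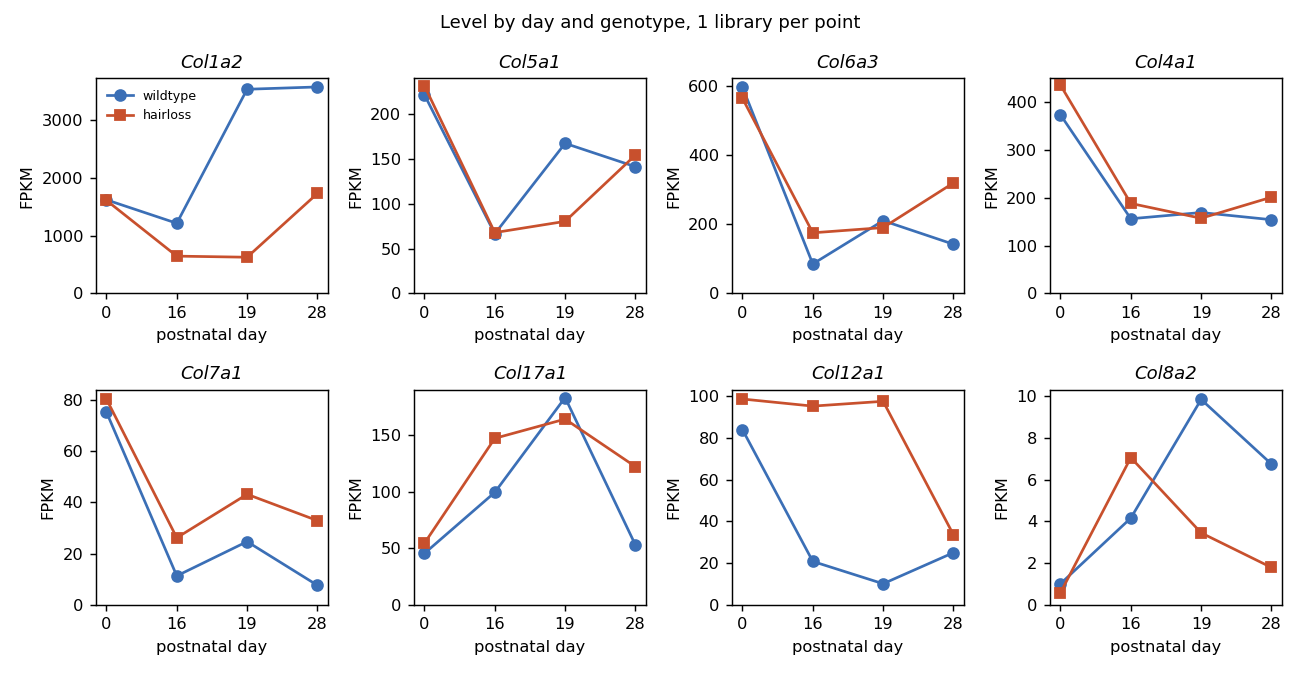
FPKM (vertical axis, from 0) by postnatal day for 8 collagens, with circles for wildtype, squares for hairloss and 1 library per point. Col12a1 stays between 95.3 and 98.7 FPKM in hairloss up to day 19 and is at 20.8 FPKM in wildtype at day 16, and Col1a2 separates the genotypes most at day 19.

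Many fibril-associated collagens bind the surface of collagen fibres, and they do not form such fibres themselves. Col12a1 (chr9:79598991-79718831), a large collagen of tissues under tension, was at 84, 20.8, 10.1 and 25 FPKM in wildtype skin and at 98.7, 95.3, 97.6 and 33.6 FPKM in hairloss. The genotypes were close at days 0 and 28 and lay 4.58-fold apart at day 16 and 9.66-fold apart at day 19. Beside it, 6 neutrophil markers summed in hairloss to 1.32, 24.7, 456 and 10.8 times wildtype, and 6 genes of wound-type epidermis to 2.48, 36.4, 144 and 24 times wildtype, with S100a8 and S100a9 counted in both lists. These 2 genes carried most of the neutrophil sum at day 19 (S100a8 7.64 against 3499 FPKM, S100a9 3.23 against 3004 FPKM), while Cxcr2 was at 0.0509 against 5.81 FPKM and Csf3r at 0.491 against 5.59 FPKM. Stfa3 carried most of the wound-type sum in wildtype at day 0 (2872 of 2976 FPKM) and in hairloss at day 28 (3978 of 4795 FPKM). Krt6a, on the same list, was within 2-fold at day 28 (96.8 against 134 FPKM). The part of either marker list in the Col12a1 values was not tested.

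Col14a1 (chr15:55307750-55520803), a related collagen of differentiated dermis, was at 70.4, 33.4, 53.2 and 41.1 FPKM in wildtype skin and at 68.3, 27.2, 20.8 and 59.1 FPKM in hairloss. It was 2.56-fold lower in hairloss at day 19, the day at which Col12a1 was 9.66-fold higher. Col16a1 was the steadiest of the class, with 66.4 to 91.5 FPKM in wildtype skin and 58.7 to 78.7 FPKM in hairloss. Col19a1 was at 1.79 and 1.58 FPKM at day 0 and at no more than 0.133 FPKM later. Its chromosomal neighbour Col9a1 was at 1.12 FPKM in wildtype skin and 0.511 FPKM in hairloss at day 0 and at most 0.0263 FPKM later, where 2 libraries lay under the level of 3 fragments. Col9a2 was at 0.133 to 1.15 FPKM and Col9a3 at 0.927 to 3.41 FPKM, so the levels of the chains of type IX, a cartilage collagen, were not matched. Col20a1 lay between 0.375 and 1.66 FPKM and Col22a1 did not exceed 0.225 FPKM.

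Multiplexins carry heparan or chondroitin sulphate chains in basement membranes and release endostatin-like fragments. Col18a1 (chr10:77052178-77166548) was at 33.6, 44.8, 28.2 and 40.3 FPKM in wildtype skin and at 45.8, 66.6, 57.6 and 47.1 FPKM in hairloss. Every hairloss library was above every wildtype library, which held for 2 of 38 collagens with a value in all libraries and at least 1 FPKM in some, Col18a1 and Col6a5, and for 2.33% of all genes (2.5% of protein-coding genes). The reverse, every hairloss library below every wildtype library, held for 0 of these 38 (Col4a6, which shows it, stayed under 1 FPKM and is not counted; 2.51% of all genes, 2.29% of protein-coding genes). Col15a1 was at 43.3, 32.7, 62.1 and 60.1 FPKM in wildtype skin and at 50.5, 36.2, 24.2 and 61.1 FPKM in hairloss, which is 2.56-fold lower at day 19. The related pair thus differed in opposite directions at day 19.

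In the small network class, Col8a2, a chain of the type VIII lattice of vessels and cornea, was at 1.01, 4.16, 9.85 and 6.75 FPKM in wildtype skin and at 0.58, 7.06, 3.45 and 1.79 FPKM in hairloss. It was higher in hairloss at day 16 by less than 2-fold, and lower at days 19 and 28 by 2.86-fold and 3.77-fold. Col8a1 was at 2.44 to 5.53 FPKM in wildtype skin and 2.89 to 4.63 FPKM in hairloss, and the ratio of Col8a1 to Col8a2 moved from 5.48 and 5.19 at day 0 to 0.288 and 0.839 at day 19. Col10a1, the collagen of hypertrophic cartilage, was at 0.439 to 1.51 FPKM. Col26a1 was at 25 and 21.9 FPKM at day 0 and 0.665 to 1.91 FPKM later, and Col28a1, known from peripheral nerve, was at 1.24, 3.24, 4.08 and 1.81 FPKM in wildtype skin and 1.45, 5.78, 5.32 and 3.32 FPKM in hairloss.

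**Figure D4:**
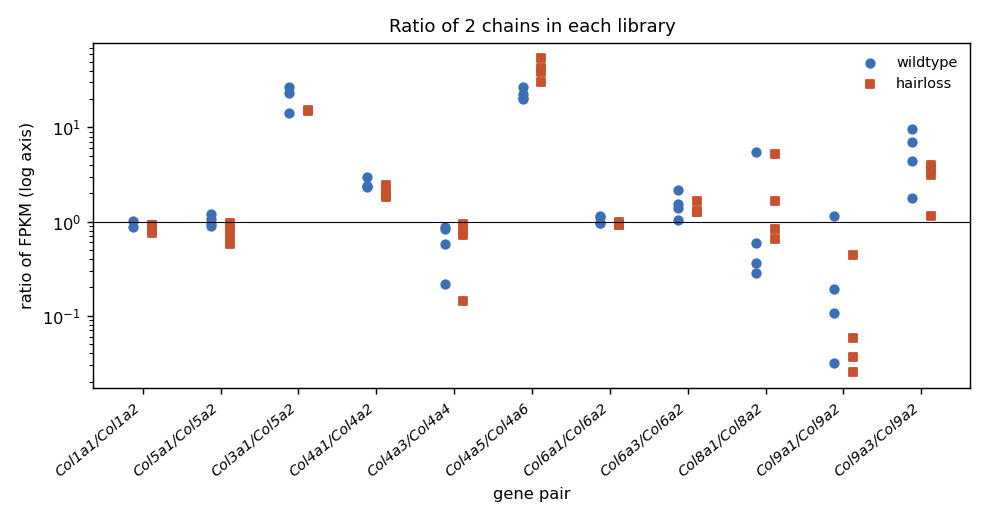
Ratio of FPKM between 2 collagen chains (vertical log axis) in each library for 11 gene pairs, with circles for wildtype and squares for hairloss; the line marks equal levels. Col6a1/Col6a2 and Col1a1/Col1a2 vary least, and Col4a5/Col4a6 separates the genotypes without overlap, with Col4a6 under 1 FPKM in every library.

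From day 0 to day 16, limma with genotype as a block and Benjamini-Hochberg adjustment over all genes called 11 of 39 collagens lower (5.17% of all genes, 5.01% of protein-coding genes) and 1 higher (4.03% and 4.92%). Col26a1 fell by 3.69 on log2(FPKM + 1) (SE 0.345, adjusted p = 0.0212). Col27a1 fell by 2.42 (SE 0.395, adjusted p = 0.0362), Col6a3 by 2.24 (SE 0.404, adjusted p = 0.0393) and Col7a1 by 2.11 (SE 0.429, adjusted p = 0.0461). All 4 were lower at day 16 in each genotype.

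The same limma fit called Col5a1 lower by 1.74 (SE 0.333, adjusted p = 0.0427), Col6a2 by 1.72, Col25a1 by 1.53, Col6a6 and Col19a1 each by 1.35, Col4a1 by 1.23 and Col4a2 by 0.88. By class, the calls were 3 of 5 tested type VI genes, 2 of 5 type IV genes, 2 of 9 fibrillar genes, 1 of 8 fibril-associated genes, 1 of 4 transmembrane genes, Col7a1 and both of the others. Col28a1 rose by 1.19 (SE 0.215, adjusted p = 0.0393). Col5a2 (-1.41, adjusted p = 0.0502), Col6a1 (-1.54, adjusted p = 0.0513), Col17a1 (1.26, adjusted p = 0.0686) and Col8a2 (1.86, adjusted p = 0.0819) did not pass. Col1a2 (-0.87, SE 0.586, adjusted p = 0.335) did not pass, and Col1a1 was fitted without 2 libraries, with 1 residual degree of freedom (-0.84, adjusted p = 0.269). Col3a1, fitted without 3, allowed no test.

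These calls depend on the spread being estimated from all 8 libraries with 3 residual degrees of freedom. Leaving out any 1 of the 4 libraries of days 0 and 16 ended every collagen call, with Col26a1 at an adjusted p of 0.11 to 0.149 and estimates between -4.08 and -3.29. With no filter on low values, 0 collagens passed. Summed markers of several cell types, among them fibroblasts, muscle, endothelium and adipocytes, were also lower at day 16 in both genotypes. In these lists 2 of 8 fibroblast markers and 1 of 8 muscle markers were called lower (5.17% of all genes). Called higher were 1 muscle marker and 1 of 6 adipocyte markers (4.03% of all genes), and no endothelial marker was called. Their part in the fall of the collagens was not tested.

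**Figure D5:**
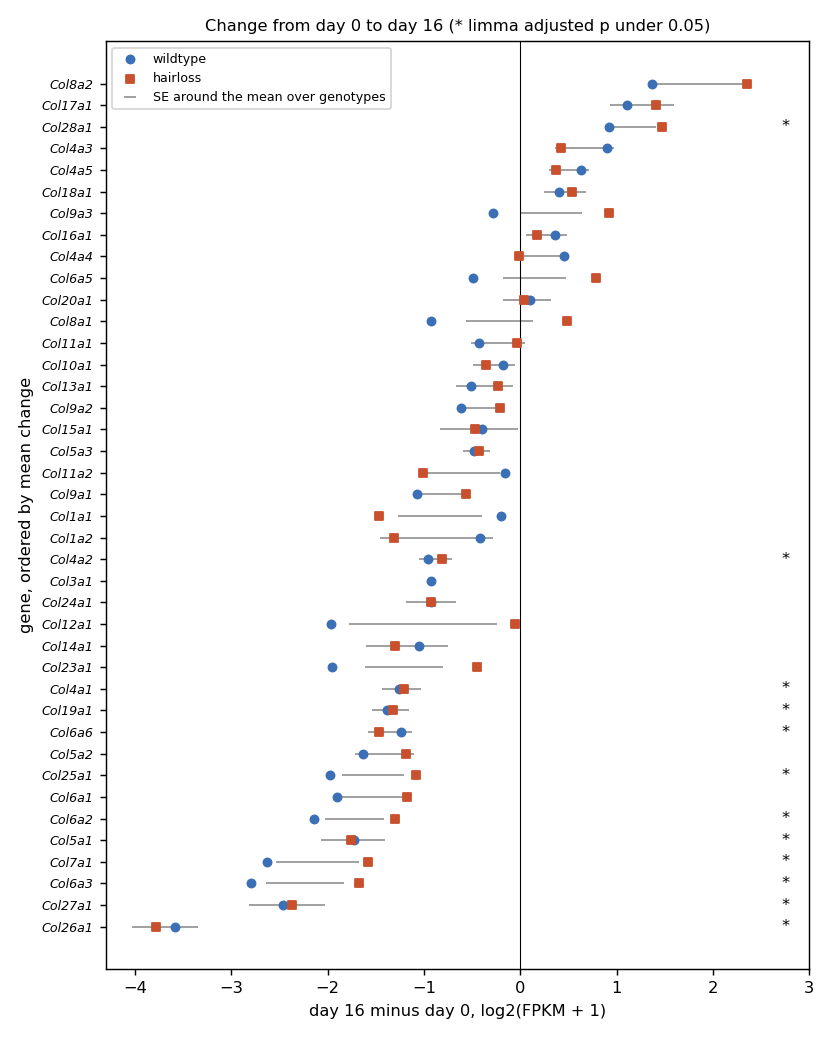
Change from day 0 to day 16 on log2(FPKM + 1) (horizontal axis) for each collagen in the fit, with circles for wildtype, squares for hairloss, grey lines for the SE around the mean of both, and stars for limma adjusted p under 0.05. The points of both genotypes lie left of 0 for the 11 genes that fell, and right of 0 for Col28a1.

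Promoter sequence was examined for the genes that fell together. Promoters from RefSeq (GRCm38.p6, the mm10 assembly) matched 35 of 44 collagens, and the 250 bases before the start were searched on both strands for the GC box GGGCGG, the CAAT box (CCAAT) and the TATA box (TATAAA). The GC box was present in 57.9% of 38 collagen promoters and 32.7% of 32851 promoters of all genes, the CAAT box in 34.2% and 33.8%, and the TATA box in 13.2% and 12.4%. Of the 11 collagens that fell, 10 had a promoter. Their 11 promoters held the GC box in 72.7% and the TATA box in 0, against 51.9% and 18.5% of the 27 promoters of the other collagens. The median GC content was 60.4% for those that fell, 57.6% for the other collagens and 52.4% for all promoters. A match is a description of letters and not of a binding site.

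Shown 5′ to 3′ on the gene's strand are the windows before the RefSeq start of 4 genes that fell by 1.74 or more and that differ in these letters: Col6a3 (chr1:90843972-90844221, minus strand), Col5a1 (chr2:27886175-27886424, plus strand), Col27a1 (chr4:63215162-63215411, plus strand) and Col7a1 (chr9:108953336-108953585, plus strand). The Col27a1 window lies inside the gene as GENCODE draws it (chr4:63214004-63334991), and the other windows abut their gene's start. Capitals mark GGGCGG or its reverse complement CCGCCC, and CCAAT or its reverse complement ATTGG. Col6a3 holds none of these, Col5a1 holds the GC box 2 times, Col27a1 holds it 1 time, and Col7a1 holds 1 GC box and 1 CAAT box on the opposite strand.
Col6a3: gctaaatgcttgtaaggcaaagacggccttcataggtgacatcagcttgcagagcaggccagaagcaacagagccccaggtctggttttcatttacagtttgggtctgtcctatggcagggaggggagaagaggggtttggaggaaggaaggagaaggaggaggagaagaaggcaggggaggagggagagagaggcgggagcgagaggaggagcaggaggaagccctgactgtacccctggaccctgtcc
Col5a1: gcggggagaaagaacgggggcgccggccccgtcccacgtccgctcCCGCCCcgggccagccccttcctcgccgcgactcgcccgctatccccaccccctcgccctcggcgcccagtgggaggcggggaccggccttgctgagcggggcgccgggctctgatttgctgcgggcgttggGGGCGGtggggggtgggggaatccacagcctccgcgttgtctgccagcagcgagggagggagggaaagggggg
Col27a1: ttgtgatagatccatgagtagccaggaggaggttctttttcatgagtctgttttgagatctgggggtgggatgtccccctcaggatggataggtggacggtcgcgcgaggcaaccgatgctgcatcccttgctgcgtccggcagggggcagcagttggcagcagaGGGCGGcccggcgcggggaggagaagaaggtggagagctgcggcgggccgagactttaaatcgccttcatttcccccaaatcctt
Col7a1: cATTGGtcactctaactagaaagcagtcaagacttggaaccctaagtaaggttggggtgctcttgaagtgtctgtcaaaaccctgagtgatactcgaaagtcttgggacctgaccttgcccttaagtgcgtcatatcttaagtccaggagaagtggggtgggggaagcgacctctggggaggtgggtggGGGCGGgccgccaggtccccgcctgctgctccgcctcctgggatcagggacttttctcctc

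After day 16 no collagen passed the test. From day 16 to day 19 limma called 0 of 18615 genes at an adjusted p under 0.05, and 1000 at an unadjusted p under 0.05 (2.95% higher, 2.42% lower), none of them a collagen. From day 19 to day 28 it called 0 of 18620 genes, and 1925 at an unadjusted p under 0.05 (5.8% higher, 4.54% lower), with Col11a1 (1.54, adjusted p = 0.352), Col6a6 (0.83, adjusted p = 0.401), Col17a1 (-1.10, adjusted p = 0.421) and Col28a1 (-0.70, adjusted p = 0.421) among them. The direction of the median differed between the genotypes, which was not tested. The median change of the collagens from day 16 to day 19 was 0.23 in wildtype and -0.05 in hairloss, and from day 19 to day 28 it was -0.18 in wildtype and 0.06 in hairloss. The sum of the collagens without Col1a1 and Col3a1 was 4251, 2185, 5138 and 4854 FPKM in wildtype skin and 4543, 2136, 2070 and 3666 FPKM in hairloss. Hairloss was thus at 0.403 of the wildtype sum at day 19. Without Col1a2 as well, that ratio was 0.901 at day 19 and 1.54 and 1.51 at days 16 and 28, so 1 gene carried most of the gap at day 19.

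Over the 4 days, with day as a block, limma called 0 of 39 collagens and 0 of 18623 genes different between the genotypes. The spread in this fit also holds any real change of the genotype difference with day. At an unadjusted p under 0.05 there were 8 collagens higher (6.98% of all genes, 7.95% of protein-coding genes) and 4 lower (6.72% and 6.12%) in hairloss. The estimates, hairloss minus wildtype on log2(FPKM + 1), were 1.48 for Col12a1 (SE 0.543, adjusted p = 0.348), 1.0 for Col7a1 (SE 0.303, adjusted p = 0.327) and -1.12 for Col1a2 (SE 0.415, adjusted p = 0.348). They had the same direction at 4 of 4 days in each of these genes. At day 0, however, the genotypes were nearly equal for Col1a2 (1621 against 1611 FPKM) and close for Col7a1 (75.3 against 80.4 FPKM). Col6a5 (0.75, adjusted p = 0.332), Col6a2 (0.61, adjusted p = 0.342), Col18a1 (0.56, adjusted p = 0.316) and Col5a3 (0.42, adjusted p = 0.308) were also higher at all 4 days.

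By direction alone, 9 of 38 collagens were higher in hairloss at all 4 days (11.6% of all genes, 13.5% of protein-coding genes) and 6 were lower at all 4 days (13.6% and 12.2%). The higher ones were Col5a3, Col4a2, Col9a2, Col12a1, Col6a2, Col6a5, Col7a1, Col18a1 and Col28a1. The lower ones were Col1a2, Col4a3, Col4a4, Col4a5, Col10a1 and Col6a6. Col9a2 entered the 38 through hairloss at day 0 alone (1.15 FPKM, against at most 0.976 FPKM in wildtype). Col10a1 entered through wildtype alone (up to 1.51 FPKM, against at most 0.946 FPKM in hairloss). Each thus passed the filter only through the group in which it was higher. Scaling to coding genes without keratins left 8 and 6, with Col6a2 no longer higher at every day. The number of lower collagens is near the share over all genes. Of type IV, Col4a3, Col4a4 and Col4a5 were among the lower genes and Col4a2 among the higher ones. Col4a1, the other common chain, was lower in hairloss at day 19 alone (169 against 157 FPKM). Col4a3 and Col4a4 were under 1 FPKM at day 0 in both genotypes.

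Of 18 genes listed for procollagen folding and modification, 0 passed the test from day 0 to day 16, and P3h1, a prolyl 3-hydroxylase, came nearest (-1.22, limma adjusted p = 0.0597). P4ha3, a catalytic subunit of prolyl 4-hydroxylase, was at 1.84, 0.155, 0.288 and 0.0717 FPKM in wildtype skin and at 2.49, 3.42, 4.54 and 1.03 FPKM in hairloss. At day 19 P4ha2 (28.8 against 9.36 FPKM), the collagen chaperone Serpinh1 (281 against 112 FPKM) and Crtap (30.7 against 14.2 FPKM) were lower in hairloss, as 3 of 17 compared (5.62% of all genes). None of the 17 was lower past 2-fold at the other days. Calls from day 0 to day 16 in this and the following lists come from the fit used for the collagens. That fit called 750 genes higher and 963 lower. Leaving out any 1 library of days 0 and 16, or the filter on low values, left far fewer calls over all genes.

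Propeptide processing genes at day 19 showed 3 of 6 lower in hairloss (5.62% of all genes), namely Pcolce2 (22.9 against 3.33 FPKM) and Pcolce (130 against 44.2 FPKM), enhancers of C-propeptide removal, and the N-proteinase gene Adamts14 (6.46 against 2.55 FPKM). Tll1, a C-proteinase, was higher (2.42 against 6.14 FPKM). Of 5 cross-linking oxidases none passed 2-fold between genotypes at any day, and Lox fell from day 0 to day 16 by 1.60 (SE 0.292, limma adjusted p = 0.0401). Of 9 small leucine-rich proteoglycans, which coat fibres, 5 were lower in hairloss at day 19 (5.62% of all genes), among them Ogn (46.4 against 10.7 FPKM), Fmod (23.4 against 6.19 FPKM), Kera (3.95 against 0.77 FPKM) and Dcn (1118 against 445 FPKM). Aspn was the proteoglycan gene that fell from day 0 to day 16, by 1.21 (limma adjusted p = 0.0398). The calls of Lox and Aspn share the limits of that fit.

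Of 11 genes that degrade collagen or regulate its breakdown, 5 were higher in hairloss at day 16 (5.12% of all genes) and 0 lower (7.29%), with the protease inhibitor Timp1 at 3.31 against 65 FPKM, the gelatinase Mmp9 at 1.62 against 15.6 FPKM, the neutrophil collagenase Mmp8 at 0.0236 against 1.69 FPKM and the interstitial collagenase Mmp13 at 0.135 against 4.47 FPKM. At day 19 Mmp13 (0.0841 against 8.41 FPKM), Timp1 (4.53 against 37 FPKM) and Mmp9 (3.74 against 28 FPKM) were the 3 of 10 compared that were higher (6.25% of all genes), while the list's median difference was -0.31, with Ctsk at 164 against 85 FPKM. None passed 2-fold at days 0 and 28. From day 0 to day 16 Mmp3 rose by 3.44 and Timp3 by 1.14 (limma adjusted p = 0.0326 and 0.0302), with the same limits of the fit. The macrophage markers summed in hairloss to 3.3 times wildtype at day 16 and 0.986 times at day 19. The neutrophil marker Cxcr2 was at 0.269 against 7.59 FPKM and Csf3r at 0.158 against 7.38 FPKM at day 16, and both were also higher in hairloss at day 19. The part of these cells in the values was not tested.

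Among collagen receptors, Itga11, the integrin chain of fibroblasts for fibrillar collagen, rose from day 0 to day 16 by 1.68 and Ddr1, a receptor tyrosine kinase of epithelia, by 1.48 (limma adjusted p = 0.0238 and 0.0218), as 2 of 7 tested (4.03% of all genes). Itga2 was the receptor gene past 2-fold between genotypes at day 16, at 2.68 against 7.33 FPKM. Of 14 other basement membrane genes, 5 fell from day 0 to day 16 (5.17% of all genes) and 0 rose (4.03%), where Egfl6 fell by 3.54, Fras1 by 1.91, Nid1 by 1.68 and Nid2 by 1.26 (limma adjusted p = 0.0238 to 0.0413). The receptor and basement membrane calls come from the day 0 to day 16 fit, which left far fewer calls over all genes without any 1 library of those days or without the filter on low values.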

How the data were processed

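Total RNA of mouse skin was sequenced in 8 libraries prepared with a TruSeq kit (labels' protocols). The authors deposited 1 value per Ensembl gene without a unit, which was read as FPKM because Cuffdiff is named and the values are not whole. Per the submitters' processing notes, cutadapt, Cuffdiff and mm10 were used; aligner and annotation release: not given in the sources used here. Gene positions and types come from GENCODE M21 (GRCm38, the mm10 assembly). Depth was estimated from the value of 1 fragment in single-transcript genes over 1000 bases, and floors of 3 fragments cover counting error only.

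An exact 0 was left out as a failed estimate where a gene not on the Y had a value in at least 2 libraries, all at least 5 FPKM (157 genes, 7 of them protein-coding, 2 of them collagens). Tests ran on log2(FPKM + 1), a scale on which low genes show too small a fold; folds printed beside levels are ratios of FPKM. Of the 44 collagens, 40 reached 1 FPKM in some library and entered limma 3.58.1 (R 4.3.3, eBayes with trend and robust, two-sided, Benjamini-Hochberg over all genes, threshold 0.05), with 39 tested; Col2a1, Col4a6, Col6a4 and Col22a1 did not. The genotype test used day as a 4-level block and the day steps genotype as a block. The labels do not say how many animals a library holds, so p-values measure the spread between these libraries only. In each fit that spread also holds any real change of the genotype difference with day, so it is not replicate error. The fits were also run on simulated data with independent noise and a constant shift. That setting held no change of the genotype difference with day, so it cannot show how such change affects the calls. Other work used Python 3.11.15, numpy 2.4.6, pandas 2.3.3 and matplotlib 3.10.9.

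Members and lists were chosen with earlier results of these data known. Any collagen could be named, and of each pathway or marker list up to 4 genes with the largest difference in the comparison described. The marker gene Krt85 was not matched by symbol. Alternatives changed the pseudocount, filter, scaling, treatment of zeros, limma settings and block, and left out days; fits on protein-coding genes alone and without single libraries, and the direction at all days under other scalings, were added after seeing the data.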

Additional observations from a re-analysis of the deposited data

Results flagged for a closer look

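Col12a1 moved in opposite directions in the genotypes from day 19 to day 28. Its change on log2(FPKM + 1) was 1.23 in wildtype (10.1 to 25 FPKM) and -1.51 in hairloss (97.6 to 33.6 FPKM). Each value is a difference between 2 single libraries, and the difference between the genotypes was not tested.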

How the results depend on the processing

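The labels give no replicate numbers, and libraries of the same day were taken as pairs. Without that day block, the genotype test called 0 collagens and 1 gene higher and 1 lower; keeping exact zeros gave 5 genes higher and 2 lower, limma without trend and robust gave 1 higher, and leaving out any day gave 0. With no filter on low values, the step from day 0 to day 16 called 0 collagens either way (2 genes higher, 68 lower), the next step 10 genes higher and the last 10 lower, with 0 collagens. Leaving out any 1 library of days 0 and 16 gave 0 collagens either way, with 1 to 21 genes higher and 6 to 28 lower against 750 and 963. Scaling to coding genes without keratins gave 1825 lower there. Zeros kept gave 1 gene higher and 2 lower from day 16 to day 19. The causes were not tested. Among results for single collagens, a pseudocount of 5 took 12 under their threshold in an unchanged direction.

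Under the size rule, a pseudocount of 5 left 0 collagens higher at day 0 and 3 at day 16; at day 19 it left 1 higher with 4 lower, and at day 28 it left 3 higher with 1 lower. A pseudocount of 0.1 gave 3 lower at day 16 and 10 higher at day 28. Zeros kept gave 1 lower at day 0 and 5 higher at day 19, and the coding scale 1 lower at day 28. The median change of the collagens from day 16 to day 19 was 0.09 over both genotypes, 0.231 in wildtype and -0.054 in hairloss, and from day 19 to day 28 it was -0.017, -0.183 and 0.064. Depth limits the genes under 1 FPKM, and 1 library per group limits every single-day value.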
